A study of Mus musculus with 2 samples.

Results

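Interchromosomal contacts in which at least 1 anchor lay outside promoters were examined in the RNA Pol II ChIA-PET maps of mouse embryonic stem cells (mESCs). In ChIA-PET, DNA ends held together with RNA Pol II are ligated, and each paired-end tag (PET) that joins 2 peaks, here called anchors, records 1 ligation between them. An anchor was taken as a promoter when it came within 2.5 kb of any transcription start site (TSS) of a GENCODE vM1 protein-coding gene, as gene body when it did not but overlapped such a gene, and as intergenic otherwise. The choice used the annotation alone and not the number of PETs. Of 155228 pairs of anchors on different chromosomes, 63280 had a non-promoter anchor. These were 14712 of 39291 interchromosomal pairs in Ronin KO mESCs and 48568 of 115937 in control mESCs, out of 172595 pairs of all kinds.

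Both conditions used mESCs with the genotype CreERT2; Roninflox/flox, in which an inducible Cre expressed from the Rosa26 locus can delete the floxed Ronin (Thap11) gene, so the control cells carried the same alleles. Ronin KO cells received tamoxifen for 4 days and control cells ethanol for 4 days, on gelatine with serum and LIF, and chromatin was precipitated with the 8WG16 antibody against RNA Pol II. All cells came from 1 inducible line. The deposited map of each condition is 1 library that merges 2 experiments. Without separate replicates, every interval and test below covers counting error only and compares these libraries rather than the conditions. The Ronin KO library held 65276 PETs in all and the control library 156097, so the Ronin KO total was 41.8% of the control total. The deleted gene itself, Thap11 on chromosome 8 (108379003 to 108380850, mm9), held 1 promoter anchor with 41 interchromosomal PETs in Ronin KO cells and 98 in control cells. A contact map does not measure the Thap11 transcript or the deletion. When the anchors were checked against lists of cell markers, 33 of 37 annotated pluripotency genes had a non-promoter anchor with interchromosomal PETs within 50 kb. So did 8 of 14 differentiation genes and 4 of 18 fibroblast genes. Such an anchor overlapped 9 pluripotency genes, 2 differentiation genes and 0 fibroblast genes.

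Away from promoters, RNA Pol II is found along transcribed gene bodies, at enhancers and at genes of noncoding RNAs such as the small nuclear RNAs of the spliceosome, small nucleolar RNAs and microRNA precursors. Each chromosome keeps largely to its own territory in the nucleus, and loci on different chromosomes meet mainly at territory borders and in shared bodies such as nuclear speckles and the nucleolus. Read pairs between chromosomes also arise when unrelated fragments are ligated, and when a read from one copy of a repeated sequence is placed on another copy.

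A few pairs held many PETs, and nearly all others held 1 PET. For pairs with many PETs, the sequences of the anchors are shown because the 2 anchors of the pair held the same stretch. The 4 pairs below are among those with the most PETs. Capitals mark the longest stretch that is identical in both anchors, and lower case marks 20 bases of flank on each side. Coordinates are mm9, and a sequence from the minus strand is given as its reverse complement.
Gm10800 anchor, chr2:98506802-98506956, plus strand: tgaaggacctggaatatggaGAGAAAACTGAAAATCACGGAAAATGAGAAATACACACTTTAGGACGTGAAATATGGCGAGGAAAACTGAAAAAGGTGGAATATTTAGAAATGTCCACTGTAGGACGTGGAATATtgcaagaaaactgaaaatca
Intergenic anchor near Gm5614, chr9:35113042-35113196, plus strand: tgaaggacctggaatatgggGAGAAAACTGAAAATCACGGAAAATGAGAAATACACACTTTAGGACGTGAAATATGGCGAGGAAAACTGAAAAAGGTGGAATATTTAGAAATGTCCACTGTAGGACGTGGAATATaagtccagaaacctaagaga
Gm10801 anchor, chr2:98502838-98502933, plus strand: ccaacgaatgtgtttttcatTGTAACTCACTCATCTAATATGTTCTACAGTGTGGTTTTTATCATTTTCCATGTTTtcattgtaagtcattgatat
Chl1 intron anchor, chr6:103599166-103599261, plus strand: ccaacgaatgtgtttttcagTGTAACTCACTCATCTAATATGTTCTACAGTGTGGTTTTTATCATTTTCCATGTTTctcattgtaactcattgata
Pisd-ps1 anchor, chr11:3026176-3026393, plus strand: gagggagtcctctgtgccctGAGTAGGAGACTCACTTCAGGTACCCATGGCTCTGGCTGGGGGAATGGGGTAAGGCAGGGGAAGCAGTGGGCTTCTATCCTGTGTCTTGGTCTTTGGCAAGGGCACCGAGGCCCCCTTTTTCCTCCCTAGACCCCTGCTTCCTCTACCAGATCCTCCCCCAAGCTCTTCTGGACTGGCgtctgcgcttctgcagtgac
Pisd-ps2 anchor, chr17:3082113-3082330, minus strand: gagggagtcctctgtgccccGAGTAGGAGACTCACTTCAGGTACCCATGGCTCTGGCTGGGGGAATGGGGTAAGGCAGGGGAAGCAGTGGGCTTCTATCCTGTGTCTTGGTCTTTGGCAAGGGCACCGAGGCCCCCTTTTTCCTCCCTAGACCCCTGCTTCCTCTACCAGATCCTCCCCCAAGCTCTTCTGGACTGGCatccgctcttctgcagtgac
Atp6v0c anchor, chr17:24301645-24301837, plus strand: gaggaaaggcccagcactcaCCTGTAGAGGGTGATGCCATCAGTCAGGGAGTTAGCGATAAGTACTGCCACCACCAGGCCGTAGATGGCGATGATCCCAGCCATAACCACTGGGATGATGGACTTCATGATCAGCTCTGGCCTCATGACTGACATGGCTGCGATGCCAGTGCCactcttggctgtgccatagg
Gm15487 anchor, chr6:37756177-37756369, minus strand: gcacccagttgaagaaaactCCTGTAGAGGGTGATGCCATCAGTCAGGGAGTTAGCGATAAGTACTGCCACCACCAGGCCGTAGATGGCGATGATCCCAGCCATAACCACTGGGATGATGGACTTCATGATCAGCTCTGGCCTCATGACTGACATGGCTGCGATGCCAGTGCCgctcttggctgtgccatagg
The identical stretch measured 115 bp in the Gm10800 pair, 56 bp in the Gm10801 and Chl1 pair, 178 bp in the Pisd-ps1 and Pisd-ps2 pair and 153 bp in the Atp6v0c and Gm15487 pair. It lay in coding sequence of the predicted gene Gm10800, in introns of Gm10801 and Chl1, in Pisd-ps1 and Pisd-ps2, and in coding sequence of Atp6v0c against an exon of the pseudogene Gm15487. The intergenic partner of Gm10800 lay 23001 bp from the TSS of Gm5614.

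Among anchors whose pairs held few PETs each, one of those with the most partners held the Mir290 to Mir295 cluster, whose microRNAs are abundant in mESCs. RefSeq (GRCm38.p6) gives the mature sequences below. They are 3′ arms of the cluster that hold AAGUGC in the seed (bases 2 to 8, in capitals). The set of sequences used held no 3′ arm of miR-292a, so the list may not be complete. Other 3′ arms of the cluster with other seeds, those of miR-290b-3p, miR-292b-3p and miR-293-3p, are not printed. Of those printed, miR-291a-3p, miR-294-3p and miR-295-3p have the same seed throughout.
miR-290a-3p: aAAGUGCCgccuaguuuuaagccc
miR-291a-3p: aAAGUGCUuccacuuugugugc
miR-291b-3p: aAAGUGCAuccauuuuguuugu
miR-294-3p: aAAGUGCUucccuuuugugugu
miR-295-3p: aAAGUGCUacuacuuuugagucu

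Ronin KO cells had 14712 non-promoter interchromosomal pairs and control cells 48568, so the Ronin KO number was 30.3% of control (exact conditional binomial 95% interval 29.7 to 30.9%). Pairs joining 2 promoters came to 24579 in Ronin KO cells and 67369 in control cells, or 36.5% of control (36.0 to 37.0%). Non-promoter pairs therefore made up 37.4% of interchromosomal pairs in Ronin KO cells and 41.9% in control cells (odds ratio 0.83, 0.811 to 0.850, Fisher's exact test, p = 1.61e-54). This direction depended on which anchors were present. In the control library, 66.2% of the non-promoter pairs joined anchors that overlapped an anchor of the other library, against 90.3% in the Ronin KO library. Between such anchors, there were 13281 non-promoter pairs in Ronin KO cells and 32146 in control cells (41.3%, 40.5 to 42.2%), and 23994 against 62737 promoter pairs (38.2%, 37.7 to 38.8%). The odds ratio of the non-promoter share was then 1.08 (1.05 to 1.11, Fisher's exact test, p = 1.78e-09), the opposite of the value over all pairs. Counted in PETs, the non-promoter share was 42.4% in Ronin KO cells and 42.8% in control cells (odds ratio 0.985, 0.965 to 1.0, Fisher's exact test, p = 0.136). The control library was the deeper one, and the role of depth in the number of anchors was not tested.

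**Figure D1:**
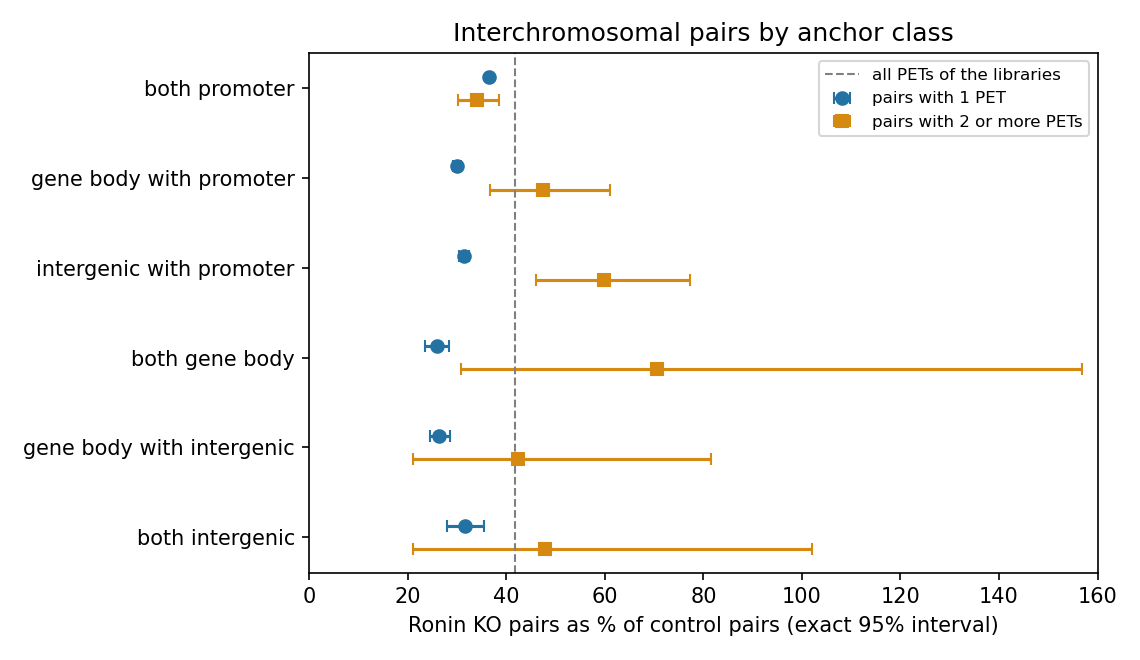
Number of interchromosomal pairs in Ronin KO cells as a percentage of the number in control cells (x axis), by the class of the 2 anchors (y axis). Circles are pairs with 1 PET, squares pairs with 2 or more PETs, bars exact 95% intervals and the dashed line the ratio of all PETs (41.8%). The ratio of all pairs of the libraries, which is not drawn, was 34.6%. Circles lie between 25.9% and 36.5%, with the highest at pairs of 2 promoters, while squares of non-promoter classes lie between 42.4% and 70.6% with wide intervals.

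Among the classes, gene body anchors paired with promoters gave 7331 pairs in Ronin KO cells and 24381 in control cells (30.1%, 29.3 to 30.9%). Intergenic anchors paired with promoters gave 5563 and 17555 (31.7%, 30.7 to 32.7%). Pairs without any promoter were fewer. There were 581 in Ronin KO cells and 2215 in control cells between 2 gene bodies (26.2%, 23.9 to 28.8%), 855 and 3218 between a gene body and an intergenic anchor (26.6%, 24.6 to 28.7%), and 382 and 1199 between 2 intergenic anchors (31.9%, 28.3 to 35.8%). Pairs with 2 non-promoter anchors thus held 12.4% of the non-promoter pairs in Ronin KO cells and 13.7% in control cells (odds ratio 0.892, 0.843 to 0.942, Fisher's exact test, p = 4.75e-05). Between anchors present in both libraries, this odds ratio was 1.13 (1.06 to 1.20), again the opposite direction. Intergenic anchors made up 43.4% of the non-promoter ends in Ronin KO cells and 42.0% in control cells (odds ratio 1.06, 1.03 to 1.1, Fisher's exact test, p = 0.000791). This small difference was not seen in other settings, since the odds ratio was 1.01 (0.971 to 1.05, Fisher's exact test, p = 0.629) between anchors present in both libraries and 0.996 (0.958 to 1.04, Fisher's exact test, p = 0.857) when TSSs of noncoding genes also defined promoters.

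The number of pairs without a promoter was near the product of the shares of their ends. Non-promoter anchors were 21.0% of the ends of interchromosomal pairs in Ronin KO cells and 23.8% in control cells. The squares of these shares are 4.42% and 5.67%, and pairs with 2 non-promoter anchors were 4.63% (4.42 to 4.84%) of interchromosomal pairs in Ronin KO cells and 5.72% (5.59 to 5.86%) in control cells. This is a description of the counts, without a test.

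Non-promoter anchors were narrower than promoters and had fewer partners. A wider anchor is more likely to come within 2.5 kb of a TSS, so the class rule in part sets this difference in width. In Ronin KO cells, 7220 non-promoter anchors had interchromosomal pairs, with a median width of 3055.5 bp and a mean of 2.29 partners, and 4162 of them had 1 partner. In control cells, 14707 such anchors had a median width of 2490 bp and a mean of 3.75 partners, and 6052 had 1 partner. Promoter anchors had a median width of 7713 bp and 6.72 partners on average in Ronin KO cells, and 5529 bp and 14.8 partners in control cells. Per 10 kb of anchor, the difference narrowed to 4.95 pairs at non-promoter anchors against 5.54 at promoters in Ronin KO cells, and 9.75 against 14.5 in control cells.

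The lower number of pair ends in Ronin KO cells was seen at every distance from genes and on every chromosome. Non-promoter ends at 2.5 to 5 kb from a TSS were 2162 in Ronin KO cells and 6893 in control cells (31.4%, 29.9 to 32.9%). Those at over 200 kb were 450 and 1598 (28.2%, 25.3 to 31.3%). Over 20 chromosomes, the percentage ran from 26.8% on chromosome 6 (748 against 2787 ends) to 32.2% on chromosome 2 (1013 against 3143). By anchor width, anchors under 2 kb gave 33.9% (2972 against 8757 ends) and anchors of 10 to 30 kb gave 27.9% (4230 against 15179). Counted in PETs, the percentages were less even. Chromosome 6, which holds the Chl1 anchor described below, was at 98.5% of control (3764 against 3823 PETs), anchors under 2 kb were at 64.4% (9403 against 14591) and anchors at 50 to 200 kb from a TSS at 60.0% (5356 against 8923). Of all non-promoter pairs, 20 in Ronin KO cells and 46 in control cells had an anchor on mitochondrial DNA, which lies outside the nucleus. They were 43.5% of control (24.4 to 75.0%), and the odds ratio of their share of non-promoter pairs was 1.44 (0.849 to 2.43, Fisher's exact test, p = 0.189). Over all interchromosomal pairs, promoters included, those with a mitochondrial anchor were 102 in Ronin KO cells and 155 in control cells, a higher share in Ronin KO cells (odds ratio 1.94, 1.51 to 2.5, Fisher's exact test, p = 4.02e-07).

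Nearly all non-promoter pairs rested on 1 PET. There were 14484 such pairs in Ronin KO cells and 48135 in control cells (30.1%, 29.5 to 30.7%). Pairs with 2 or more PETs were 228 in Ronin KO cells and 433 in control cells (52.7%, 44.7 to 62%), which is 1.55% and 0.892% of the non-promoter pairs (odds ratio 1.75, 1.49 to 2.06, Fisher's exact test, p = 5.02e-11). Between anchors present in both libraries, the odds ratio was 1.32 (1.11 to 1.57). Among pairs of 2 promoters, 1.51% in Ronin KO cells and 1.61% in control cells had 2 or more PETs. The few non-promoter pairs of this kind held 8042 PETs in Ronin KO cells and 8083 in control cells, or 35.7% and 14.4% of all non-promoter PETs. The 10 pairs with the most PETs alone held 6761 of 22526 PETs in Ronin KO cells and 5935 of 56218 in control cells. Over all non-promoter pairs, the PETs in Ronin KO cells were 40.1% of control (39.5 to 40.7%), and without these 10 pairs of each library 31.4% (30.8 to 31.9%). The adjusted p-value deposited with each pair did not separate pairs with 1 PET from the others, since 97.8% of the non-promoter pairs in Ronin KO cells and 95.9% in control cells were under 0.05, almost all with 1 PET.

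A pair with 1 PET was rarely found in both libraries. A pair was taken as found again when both of its anchors were overlapped by both anchors of 1 interchromosomal pair of the other library. Of the Ronin KO pairs with 1 PET, 220 of 14484 were found in control cells (1.52%, 1.33 to 1.73%), and of the control pairs with 1 PET, 184 of 48135 were found in Ronin KO cells (0.382%, 0.329 to 0.442%). With 2 PETs these were 23 of 133 Ronin KO pairs and 28 of 280 control pairs, and with 3 to 9 PETs 47 of 58 and 53 of 104. With 10 or more PETs, 30 of 37 Ronin KO pairs (81.1%, 64.8 to 92.0%) and 43 of 49 control pairs (87.8%, 75.2 to 95.4%) were found in the other library. Over all control pairs the share was 0.634% (0.565 to 0.709%) for those with a non-promoter anchor and 1.25% (1.17 to 1.34%) for those between promoters.

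Identical sequence was common at pairs with many PETs. An identical stretch of at least 50 bp in both anchors, on either strand, was held by 22.7% of the pairs with 1 PET in Ronin KO cells and 23.0% in control cells. Among pairs with 10 or more PETs it was held by 30 of 37 in Ronin KO cells (81.1%, 64.8 to 92.0%) and 39 of 49 in control cells (79.6%, 65.7 to 89.8%). For stretches of at least 100 bp the shares were 1.55% and 0.777% with 1 PET, and 27% and 28.6% with 10 or more PETs. With 2 PETs, 41.4% of the Ronin KO pairs and 64.6% of the control pairs held a 50 bp stretch. The median summed width of the 2 anchors was 28.5 kb in Ronin KO cells and 29.3 kb in control cells with 1 PET, 30.3 kb and 47.0 kb with 2 PETs, and 18.9 kb and 21.0 kb with 10 or more PETs. The role of anchor width in these shares was not tested. Pairs that held a 50 bp stretch accounted for 7697 of the 8042 PETs in pairs with 2 or more PETs in Ronin KO cells, and for 7514 of 8083 in control cells.

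**Figure D2:**
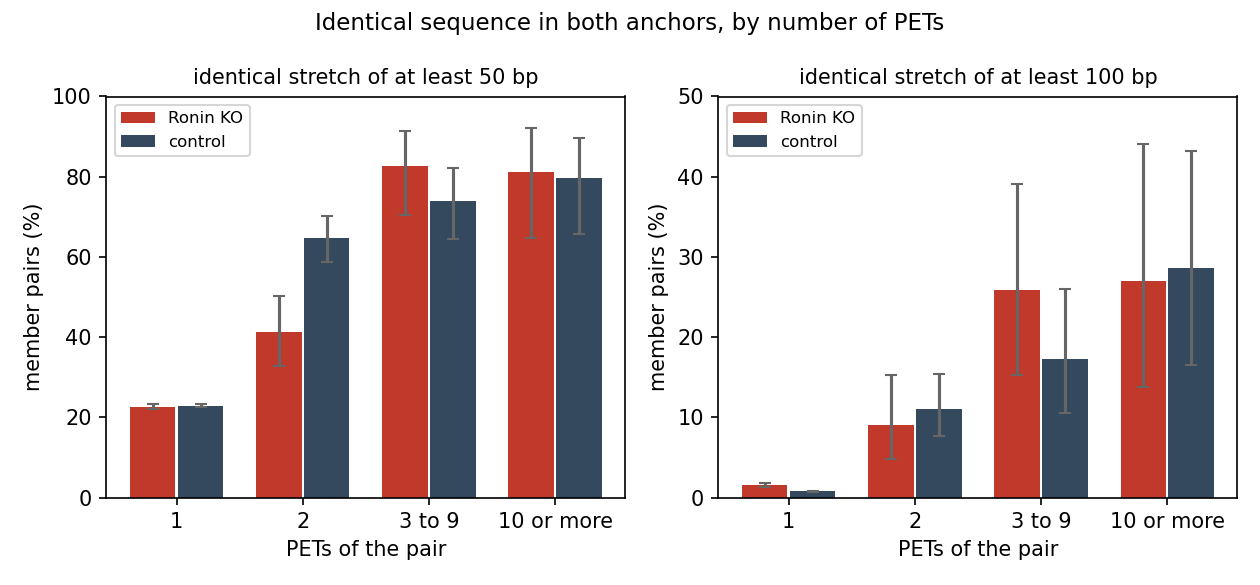
Share of non-promoter interchromosomal pairs (y axis, %) whose anchors held an identical stretch of at least 50 bp (left) or 100 bp (right), by the number of PETs of the pair (x axis), in Ronin KO and control cells. Bars are shares and lines exact 95% intervals. The 50 bp share is near 23% with 1 PET in both libraries and near 80% with 10 or more PETs.

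The pair with the most PETs in both libraries joined the anchor of the predicted gene Gm10800 on chromosome 2 with an intergenic anchor on chromosome 9 (35112421 to 35113581). It held 1704 PETs in Ronin KO cells and 2517 in control cells. The neighbouring predicted gene Gm10801 was joined to the same intergenic anchor by 258 PETs in Ronin KO cells and 353 in control cells. The best local alignment of the Gm10800 pair was 376 bp at 95.2% identity. The Gm10800 anchor matched itself best at a shift of 234 bp, with 46.3% of bases equal against a median of 28.4% over other shifts. The chromosome 9 anchor did so at the same shift of 234 bp (38.2% against 26.9%). This shift was not shared by related anchors. The best shift was 28 bp for Gm10801 (37.4%) and 120 bp for another anchor near Gm10800 (51.9%). For the Chl1 anchor described below it was 182 bp (32.8%).

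Gm10801 and Gm10800 were also joined to an intron of Chl1, a neural cell adhesion molecule, at chromosome 6 (103598781 to 103599724), 137911 bp from its TSS. These pairs held 1512, 529 and 496 PETs in Ronin KO cells and 0 PETs in control cells. The Chl1 anchor held 2575 interchromosomal PETs with 40 partners in Ronin KO cells, of which 36 partners had 1 PET. In control cells no anchor overlapped it, and the nearest control anchor lay 913177 bp away. PETs were deposited only between called peaks, so the 0 in control cells is a missing peak rather than a count, and no fold change is given. The anchor shared 56 to 77 bp identical stretches with these partners on chromosome 2, of which the 56 bp stretch is printed above.

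Loci related to Pisd, which encodes the mitochondrial phosphatidylserine decarboxylase, gave a second group of pairs. Pisd-ps1 on chromosome 11 (3023234 to 3028137) and Pisd-ps2 on chromosome 17 (3080479 to 3082961) were joined by 891 PETs in Ronin KO cells and 934 in control cells, with a best alignment of 2465 bp at 97.4% identity. A wider anchor over Pisd-ps1 and Sfi1, a centrin-binding protein gene, was joined to another stretch of Pisd-ps2 by 376 PETs in Ronin KO cells and 325 in control cells. The same Sfi1 anchor was joined to Gm2420, 7829 bp from the Pisd TSS on chromosome 5, by 220 PETs in Ronin KO cells and 251 in control cells. Its pair with the body of Pisd itself (chromosome 5, 33080284 to 33081271) had 0 PETs in Ronin KO cells and 132 in control cells, with 988 bp aligned at 92.7% identity. The same Pisd anchor was joined to Pisd-ps2 by 89 PETs in control cells, against 0 in Ronin KO cells, where no anchor overlapped it. A second anchor over Sfi1 was joined to an anchor inside Apool, a mitochondrial protein gene on the X chromosome, by 328 PETs in Ronin KO cells and 460 in control cells, with 587 bp aligned at 94.5% identity.

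Some anchors matched the spliced transcript of the gene at the other anchor, that is, they matched across exon junctions and lacked the introns. Atp6v0c, which encodes the proteolipid subunit of the vacuolar proton pump, was joined to the pseudogene Gm15487 on chromosome 6 by 447 PETs in Ronin KO cells and 706 in control cells. The Gm15487 anchor aligned over 503 bp at 99.4% identity across 2 exon junctions of Atp6v0c. Smarca5, an ISWI chromatin remodeller on chromosome 8, was joined to intergenic anchors on chromosome 4 in 6 pairs with 35 PETs in Ronin KO cells and 5 pairs with 30 PETs in control cells, and the longest match ran over 2596 bp and 15 exon junctions at 96.8% identity. Eef2, a translation elongation factor, matched an anchor inside Sfi1 over 879 bp and 4 junctions (11 PETs in Ronin KO cells and 13 in control cells). Pabpc1, a poly(A)-binding protein, matched an anchor inside Luc7l over 975 bp and 5 junctions (9 and 14 PETs). Mif, a cytokine gene, matched an intergenic anchor near Zfp74 over 400 bp and 2 junctions (8 and 10 PETs). Both libraries held pairs of these 5 genes, out of 9 genes with a match across an exon junction. Gm10800 and Gm10801 had 1 such pair in each library, but the anchors also aligned without splicing at higher identity. For Gm10800 this was 376 bp at 95.2% identity, against 329 bp at 91.5% for the transcript. For Gm10801 it was 252 bp at 94.0%, against 342 bp at 90.1%. Whether the partner anchors lacked the introns of these 2 genes was not tested. Gm16706 and Gm17659 had 0 pairs in Ronin KO cells and 1 each in control cells, with 2 PETs.

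Lars2, a mitochondrial leucyl-tRNA synthetase, held an anchor on chromosome 9 (123370616 to 123371636). This was joined to overlapping anchors on chromosome 6 by 127 PETs in Ronin KO cells and 160 in control cells. In Ronin KO cells the partner was a promoter anchor that held Tra2a (49185756 to 49217977). In control cells it was a narrower intergenic anchor nearest to Igf2bp3 (49185510 to 49187055), so the pair differed in class between the libraries. The Lars2 anchor was joined to Kpna1 on chromosome 16, an importin, by 57 and 97 PETs. The best alignments were 168 bp at 98.8% identity and 167 bp at 97.6%. In all, 19 of 37 pairs with 10 or more PETs in Ronin KO cells and 26 of 49 in control cells had an alignment of at least 200 bp at 80% identity. A few pairs of this size held no 50 bp stretch, namely 7 in Ronin KO cells, with 12 to 32 PETs and all found in control cells, and 10 in control cells, with 11 to 58 PETs, of which 8 were found in Ronin KO cells. In control cells, the one with the most PETs joined the Rcc1 promoter anchor, which also holds Snhg3, Snora73a and Snora73b, with an anchor inside Ppef2. It had 20 PETs in Ronin KO cells and 58 in control cells, and its best alignment was 198 bp at 90.4% identity.

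**Figure D3:**
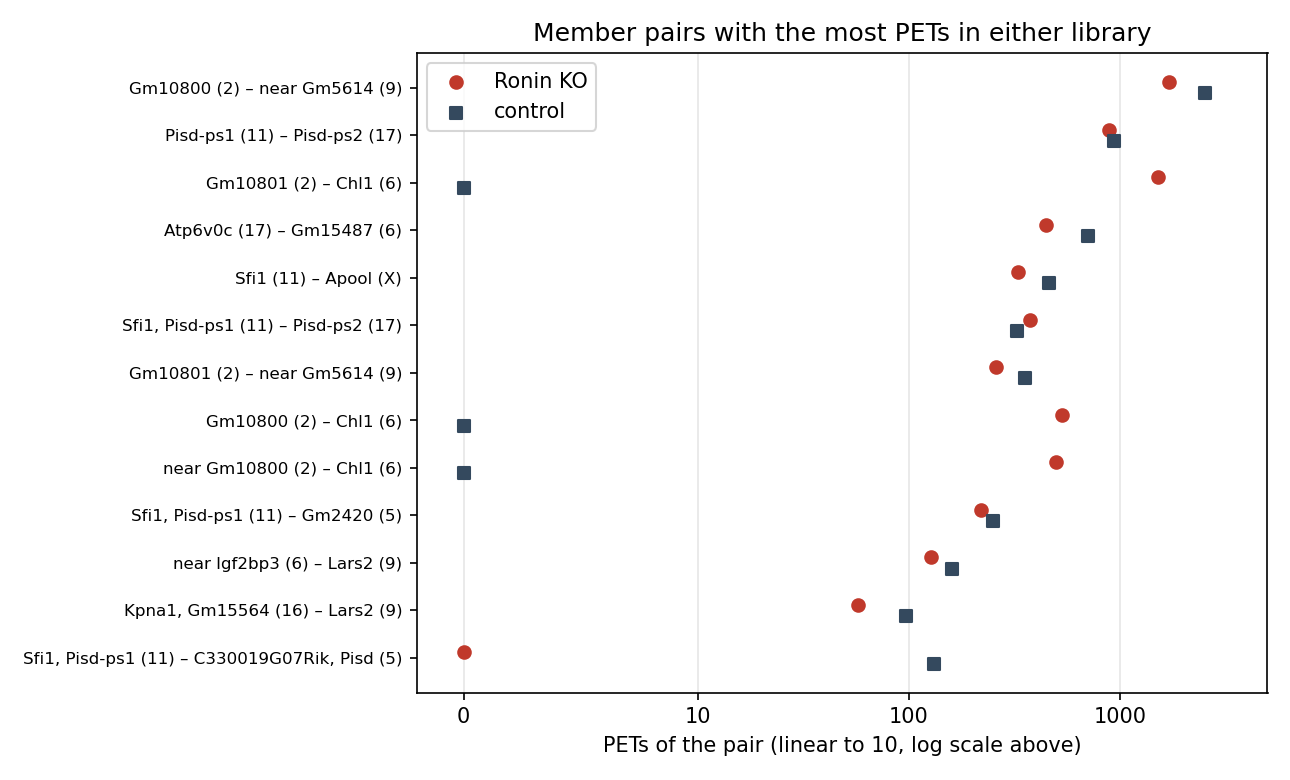
PETs (x axis, linear to 10 and logarithmic above) of the pairs with the most PETs in either library, with the chromosome of each anchor in parentheses. Circles are Ronin KO and squares control cells. In 9 of 13 pairs both libraries hold PETs, the 3 pairs of Chl1 have 0 in control cells, and the pair with Pisd has 0 in Ronin KO cells.

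Some anchors had pairs with many partners, although most non-promoter anchors had few. Of 14605 non-promoter anchors, after overlapping anchors of both libraries were merged, 4767 had interchromosomal PETs in both libraries, 1150 in Ronin KO cells alone and 8688 in control cells alone. The 20 with the most pairs, ordered here after their values were seen, had 23 to 207 partners in Ronin KO cells and 85 to 600 in control cells, with at most 4 PETs to any partner. Of these 20 anchors, 15 held a noncoding gene or a pseudogene of the annotation. Among all non-promoter anchors, 6519 of 7220 in Ronin KO cells and 13565 of 14707 in control cells held none, by a narrower set of noncoding genes. The 20 anchors were 5292 to 118415 bp wide, against medians of 3055.5 bp and 2490 bp for all non-promoter anchors. The role of width in this count was not tested.

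The anchor with most partners covered Malat1 and Neat1, the long noncoding RNAs of nuclear speckles and paraspeckles, on chromosome 19 (5789928 to 5854170), where it also reached into the body of Frmd8. It had 207 partners in Ronin KO cells and 600 in control cells (34.5%, 29.3 to 40.5%). Of these, 80.2% were promoters in Ronin KO cells and 74.3% in control cells, and 28 partners were the same in both. In control cells, histone gene clusters on chromosome 13 were among the partners with the most PETs, with 4 and 3 PETs, against 0 in Ronin KO cells. Both of these pairs held an identical stretch of at least 50 bp, with best alignments of 166 bp at 95.8% and 96.4% identity. In Ronin KO cells the partner with the most PETs was the Gm10800 anchor, with 4 PETs.

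The anchor of the Mir290 to Mir295 cluster (chromosome 7, 3198356 to 3229127, reaching into Nlrp12) had 63 partners in Ronin KO cells and 207 in control cells (30.4%, 22.6 to 40.5%), of which 3 were the same. The Mir17 to Mir92-1 cluster, known for its role in cell growth, had 29 partners in Ronin KO cells and 94 in control cells (30.9%, 19.6 to 47.2%) at chromosome 14 (115436853 to 115457102). An anchor that overlapped Zfp42 and reached beyond it had 52 partners in Ronin KO cells and 145 in control cells (35.9%, 25.6 to 49.5%). Zfp42 is a pluripotency gene also called Rex1.

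Several of these anchors held genes of small RNAs. An anchor near Parp16 with a U5 gene, an RNA of the spliceosome, had 61 partners in Ronin KO cells and 186 in control cells (32.8%, 24.1 to 44.0%). A second anchor with a U5 gene, inside Gm1661, had 39 and 175 (22.3%, 15.3 to 31.7%). An anchor with a U1 gene near Fcgr1 had 36 and 127 (28.3%, 19 to 41.3%). Tex14 held 3 of the 20 anchors, all with genes of U3, a nucleolar RNA, and the longest of them had 40 partners in Ronin KO cells and 148 in control cells (27%, 18.6 to 38.6%). U1, U3 and U5 genes have near-identical copies. The authors kept unique hits only, and whether reads were placed at another copy was not tested.

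Across all non-promoter anchors, those with a miRNA, snRNA, snoRNA, rRNA or other short RNA gene numbered 138 in Ronin KO cells and 193 in control cells. They had a mean of 8.88 partners in Ronin KO cells and 22.3 in control cells, against 2.07 and 3.33 for anchors with neither a noncoding gene nor a pseudogene. They were also wider (medians of 8944 bp and 6225 bp, against 2960 bp and 2433 bp). Per 10 kb, they had 8.51 pairs in Ronin KO cells and 24.7 in control cells, against 4.69 and 9.01. These are descriptions without a test, and the amount of RNA Pol II at the anchors was not measured here.

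**Figure D4:**
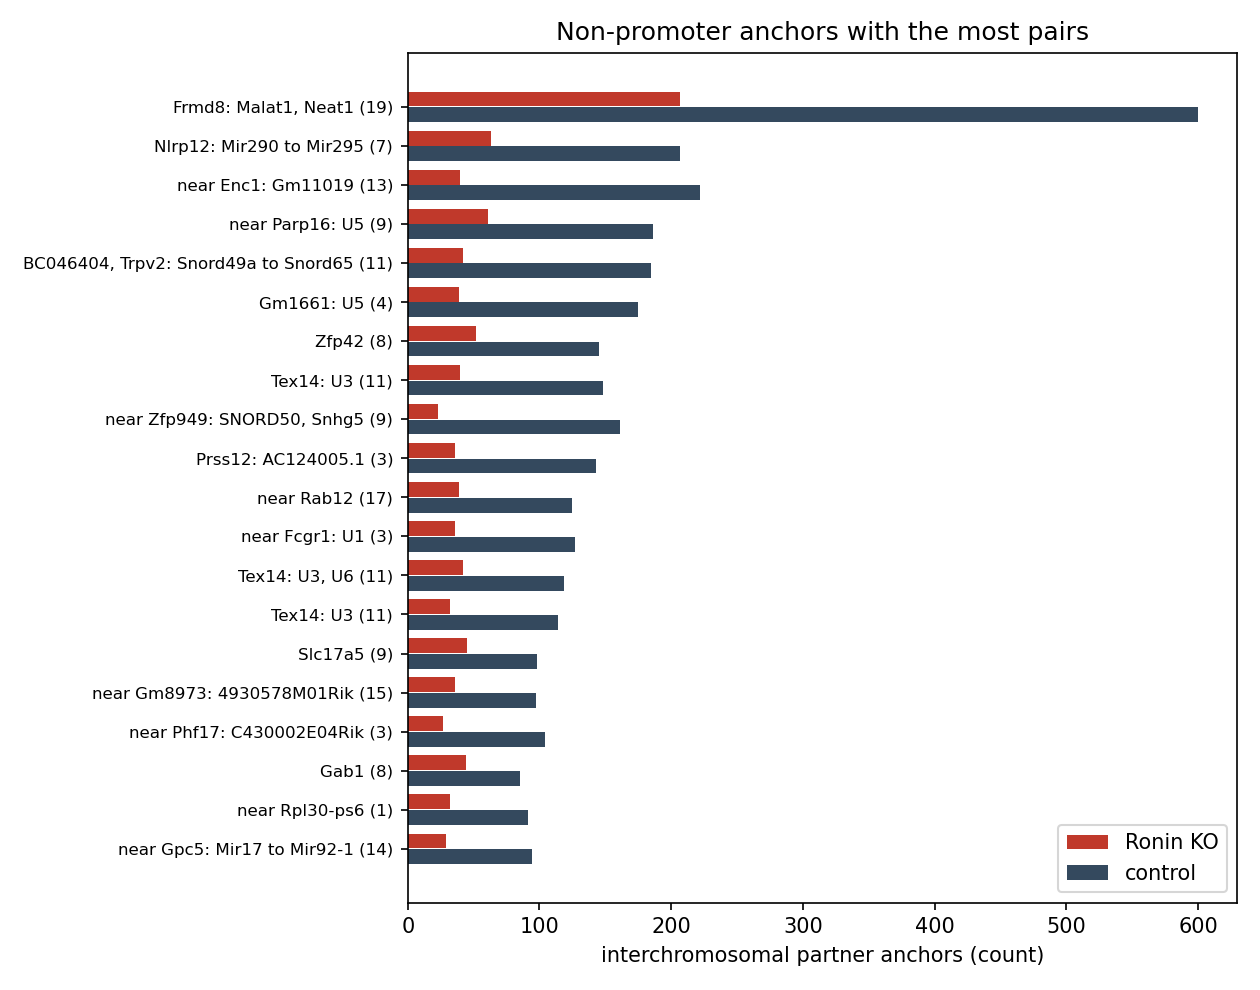
Number of interchromosomal partner anchors (x axis) of the 20 non-promoter anchors with the most pairs, in Ronin KO and control cells. Labels give the gene that holds the anchor or the nearest protein-coding TSS, then noncoding genes in it, and the chromosome in parentheses. All 20 have fewer partners in Ronin KO cells, from 14.3% to 51.8% of control.

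Single anchors were then compared by an exact two-sided binomial test of their interchromosomal PETs, against the Ronin KO share of all interchromosomal PETs (28.8%), with Benjamini-Hochberg adjustment over 6564 merged anchors with at least 10 PETs. The test asks for a difference beyond the overall one. Of 1420 non-promoter anchors, 14 were higher and 14 lower in Ronin KO cells at an adjusted p-value under 0.05, or 0.986% each way, against a background over all anchors of 0.609% higher and 0.609% lower. These counts depended on the share taken as equal. They were 10 higher and 132 lower at the Ronin KO share of all sequenced interchromosomal read pairs, and 5 higher and 613 lower at a share of 0.5. When each pair was counted once instead of by its PETs, 1 was higher and 1 lower. In the main test, 9 of the 14 higher and 11 of the 14 lower anchors were present in both libraries. The others reached 10 PETs through 1 library alone, so their calls rest on a peak missing from the other library.

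The anchors called higher were mainly those of pairs with many PETs. After Chl1, the Pisd-ps1 anchor had 913 PETs in Ronin KO cells and 945 in control cells, the Pisd-ps2 anchor 893 and 939, and the chromosome 9 anchor near Gm5614 1981 and 2919. These are 96.6%, 95.1% and 67.9% of control, above the 40.4% of all interchromosomal PETs. An anchor inside Diap2, a formin gene on the X chromosome, had 74 PETs in Ronin KO cells and 0 in control cells, with 73 of them to Jund, an AP-1 transcription factor gene. The Jund and Diap2 anchors aligned over 196 bp at 98.0% identity. An anchor at 2610005L07Rik, which is not annotated as protein-coding, on chromosome 8 (20018440 to 20019087) had 38 PETs in Ronin KO cells and 0 in control cells, 36 of them to the promoter of Nsfl1c, which encodes a cofactor of the p97 ATPase. Of the 14 anchors, 5 had 0 PETs in control cells, where no anchor overlapped them. Their calls rest on a peak that was called in the Ronin KO library alone, and not on a count in both.

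The anchors called lower were more mixed. The Pisd body anchor had 0 PETs in Ronin KO cells and 221 in control cells. A different anchor of 2610005L07Rik (chromosome 8, 19891086 to 19891845) had 0 PETs in Ronin KO cells and 56 in control cells, 54 of them again to Nsfl1c. Neither of these anchors was overlapped by an anchor of the other library. The same held for an intergenic anchor whose nearest TSS was that of Robo1, with 0 PETs in Ronin KO cells and 45 in control cells. All 45 joined an intergenic anchor near BC002059, which had 2 and 50 PETs and was also called lower. Each 0 of these 3 anchors is a missing peak rather than a count, and 11 of the 14 had a peak in both libraries. The anchor of Snhg5, a host gene of small nucleolar RNAs, at chromosome 9 (88408575 to 88421104) had 23 PETs in Ronin KO cells and 165 in control cells (13.9%, 8.6 to 21.6%, adjusted p = 1.76e-05, exact binomial test), with 23 and 161 pairs. It was the one anchor that remained lower when each pair was counted once (adjusted p = 0.0296, exact binomial test). The anchor of Snhg12, another such host gene, inside Trnau1ap had 15 PETs in Ronin KO cells and 100 in control cells (15%, 8.09 to 25.9%, adjusted p = 0.0101, exact binomial test). The anchor with Snord49a, Snord49b and Snord65 inside BC046404 and Trpv2 had 43 and 194 (22.2%, 15.5 to 31%), and the intergenic anchor with Gm11019, 233623 bp from the TSS of Enc1, had 40 and 234 (17.1%, 11.9 to 24%). Anchors inside Mbnl1, a splicing regulator (3 and 46 PETs), near Gm10260 (2 and 42 PETs) and near Usp46 (6 and 57 PETs) were also lower. The Malat1 and Neat1 anchor, with 212 PETs in Ronin KO cells and 638 in control cells (33.2%, 28.3 to 38.9%), did not pass the test (adjusted p = 0.372, exact binomial test), nor did the Mir290 to Mir295 anchor with 64 and 214 (29.9%, 22.3 to 39.7%, adjusted p = 0.516, exact binomial test).

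**Figure D5:**
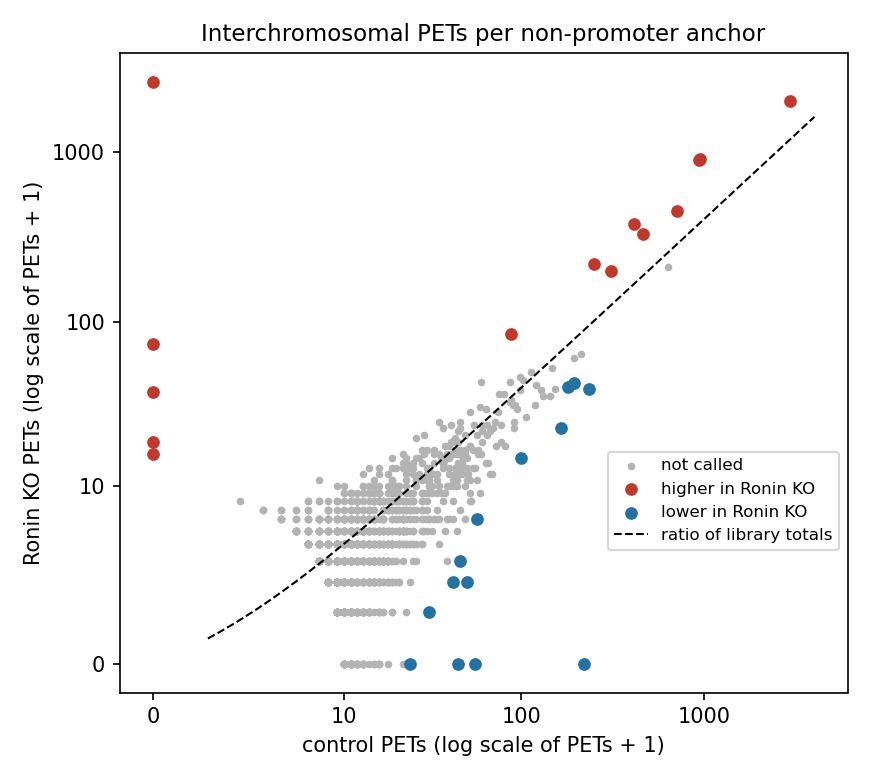
Interchromosomal PETs of the 1420 non-promoter anchors tested, in Ronin KO cells (y axis) against control cells (x axis), both on a logarithmic scale of PETs plus 1. Red and blue points are the 14 anchors called higher and the 14 called lower in Ronin KO cells, and the dashed line is the ratio of all interchromosomal PETs. Most called anchors with over 200 PETs lie above the line, and the Chl1 anchor is at 2575 and 0.

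Gene lists were read with the same test. Within 50 kb of the pluripotency genes lay 113 non-promoter anchors, with 199 PETs in Ronin KO cells and 646 in control cells (30.8%, 26.1 to 36.2%). PETs were fewer in Ronin KO cells at 98 of them, or at 31 of the 33 genes, and none of the 18 that could be tested was called. Over all non-promoter anchors, 83.2% had fewer PETs in Ronin KO cells. Zfp42 had 66 PETs in Ronin KO cells and 180 in control cells, Jarid2, a partner of Polycomb, 34 and 109, and Klf2, a pluripotency factor, 15 and 42. The anchors of the noncoding RNA genes, 86 in number for 28 genes, had 451 PETs in Ronin KO cells and 1566 in control cells (28.8%, 25.9 to 32%), and 2 of 15 tested were lower, those of Snhg5 and Snhg12, against 0.986% of all non-promoter anchors tested. The list was chosen with earlier results of these data known, so this count is no independent evidence. Xist and Tsix, the RNAs that govern X inactivation, had 29 and 33 PETs in Ronin KO cells and 75 and 81 in control cells, in part from the same anchors. Around differentiation genes there were 16 PETs in Ronin KO cells and 46 in control cells, with 5 and 17 at Krt18, a keratin, and 5 and 15 at Gata4, an endoderm factor. Around Thap11 and its relatives and cofactors there were 14 and 50, with 6 and 14 at Hcfc1, a chromatin cofactor, and 5 and 12 at Zfp143, a zinc finger factor. At fibroblast genes there were 2 and 13. No anchor of these last 3 lists was called, and 2 anchors in all were deep enough to be tested.

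The share of PETs that joined another chromosome was lower at intergenic anchors than at promoters. At intergenic anchors, 54.2% of PET ends were interchromosomal in Ronin KO cells and 61.5% in control cells, at gene body anchors 86.1% and 85.6%, and at promoters 87.5% and 89.0%. With each pair counted once, the classes lay closer together, with 85.5% in Ronin KO cells and 88.7% in control cells at intergenic anchors, 86.8% and 89.0% at gene body anchors, and 89.3% and 90.9% at promoters. Over gene body and intergenic anchors together, the odds of an interchromosomal against an intrachromosomal PET end were lower in Ronin KO cells (odds ratio 0.774, 0.755 to 0.795, Fisher's exact test, p = 6.48e-83). This was 0.782 (0.745 to 0.820) with each pair counted once. It was 1.0 (0.957 to 1.05, Fisher's exact test, p = 0.964) after pairs whose anchors shared an identical stretch of at least 100 bp were left out. Without the 10 non-promoter interchromosomal pairs with the most PETs in each library, it was 0.607 (0.591 to 0.624). Leaving out pairs thus moved the odds ratio both ways.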

How the data were processed

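RNA Pol II ChIA-PET of 1 Ronin KO and 1 control library of mESCs was used. The authors removed linkers (cutadapt), aligned each mate on its own (Bowtie 1.1.1, mm9, unique hits with up to 2 mismatches), collapsed duplicate PETs, called peaks with MACS 1.4.2, removed intrachromosomal PETs under 4 kb and merged 2 experiments per condition. The authors deposited PET counts per pair of peaks, a distance score, and a p-value with its adjusted value per pair. The distance score and the counts per peak were not used. Deposited values were not normalised.

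Peaks were classed with GENCODE vM1 on NCBIM37 (mm9), starts being taken as zero-based. Gene body anchors overlap a protein-coding gene, and an anchor given as inside a gene may reach beyond it. Counts were compared as ratios with exact conditional binomial intervals, shares with exact binomial (Clopper-Pearson) intervals, and odds ratios with Woolf intervals and Fisher's exact test (all two-sided, 95%), without a model of spread between replicates. Anchors of both libraries overlapping by 1 bp were merged for the exact binomial test, which was tested on simulated data. Anchor sequences were compared with exact stretches and BLAST+ 2.17.0 (expected value 1e-10). An exon junction counted where the intron exceeded 50 bp and at least 20 aligned bases lay on each side. No fold change is given where a library had no peak. Python 3.11.15, numpy 2.4.6, pandas 2.3.3, scipy 1.17.1 and matplotlib 3.10.9 were used.

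Members and gene lists were chosen with earlier results of these data known. Named were the 10 pairs with the most PETs in each library and the 10 non-promoter anchors with the most PETs. Up to 10 anchors called each way and 3 genes per list were also named. Other pairs, the anchors with most partners, the Usp46 anchor, and Xist and Tsix were chosen after their values were seen. Alternatives covered the TSS window and biotypes, identical stretches, PET number, anchor width, chromosomes, overlap, the null share and the PET minimum.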

Additional observations from a re-analysis of the deposited data

How the results depend on the processing

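Of 63 alternatives, 37 kept the direction and the call or stayed close to the main value. With 2 or more PETs only, Ronin KO pairs were 52.7% of control, PETs 99.5%, and the odds ratios were 1.54 for the non-promoter share (reversed), 0.955 for 2 non-promoter anchors and 1.11 for intergenic ends, and 28.6% of control pairs were found again. Between anchors of both libraries (chosen after seeing the data) the ratio of pairs was 41.3%, the non-promoter share 1.08 and that of 2 non-promoter anchors 1.13 (both reversed), and that of intergenic ends 1.01. Without anchors over 30 kb the ratio of pairs was 31% and the intergenic odds ratio 1.03. With TSSs of every biotype the intergenic odds ratio was 0.996 (reversed). With PETs as the unit the non-promoter share gave 0.985. Without pairs sharing 100 bp, PETs were 36.5% of control, the interchromosomal share gave 1.0 (0.957 to 1.05, against 0.774, so its direction was lost), 0.517% were found again and 9 anchors were higher. Without the 10 largest pairs of each library (also added), PETs were 31.4% of control and the interchromosomal share gave 0.607 (0.591 to 0.624). Pairs found again were 0.931% with anchors extended by 5 kb and 0.496% with an overlap of at least 0.5 of each control anchor. Anchors called higher were 1 with each pair counted once and 5 with a null share of 0.5, and those lower 1, 613 and, at the null share of all sequenced interchromosomal read pairs, 132. The cause of these changes was not tested. No paired analysis was possible because each condition has 1 merged library, and no replicate could be left out. Anchors under 10 PETs could not be tested, and 1-PET pairs cannot be told from chance ligation.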
